A study of Arabidopsis thaliana with 4 samples.

Results

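The FLAG-rga11 mutant peaks are the 505 intervals of the deposited peak list that the authors called for a tagged, mutant RGA protein against its control, taken whole. They are 505 of the 6621 intervals in the peak lists of the series. RGA belongs to the DELLA proteins, which sit in the nucleus and hold back plant growth. Gibberellin, the growth hormone, leads to its removal through the F-box protein SLY1, so DELLA proteins build up where SLY1 is lost. DELLA proteins are not known to bind DNA themselves, and reach chromatin through transcription factors and other partners.

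The peaks come from chromatin immunoprecipitation and sequencing (ChIP-seq), in which cross-linked chromatin is pulled down and the DNA held with it is sequenced. Arabidopsis thaliana seedlings were kept for 10 days on MS plates in continuous light and fixed for 20 min in 1% formaldehyde, and the chromatin was incubated for 2 h with FLAG-M2 agarose beads. The FLAG-rga11 mutant library is labelled sly1 dP, and so is its control, which is labelled as a control only. Each has 1 library of the 4 in the series, so the peaks have no replicate check and no test between libraries was possible. The peak list names its control differently from the label, and which library served was not settled here. The labels give neither the promoter of the tagged gene nor the number of seedlings behind a library, and do not expand dP. The series as a whole asks how the PFYRE subdomain ties DELLA proteins to histone H2A, and the list answers which chromatin came down with the mutant protein above its control.

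The highest folds lay at or near TPS7, AT1G15010, SPL8, GATL10, AT1G35350, TCH3 and WRKY33. TPS7, of the trehalose-6-phosphate synthase family, was the coding gene nearest to the peak with the highest fold, 4.96. The summit, the base where a peak is highest, lay on chromosome 1 at 1953948, 726 bp outside TPS7 and inside the lncRNA gene AT1G04453, with 114 ChIP fragments over it and a control level of 10. Fold here is the authors' own value for the peak: ChIP coverage at the summit scaled by 0.470, over the control level, each with 1 added. ChIP fragments and control levels were solved from that fold and its p-value, and the lowest control level in the list, 7.21, is the genome-wide background of the call.

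Other genes at the highest folds had few control fragments. The second highest, 4.89, had its summit inside AT1G15010 on chromosome 1, with 102 ChIP fragments against a control level of 9. SPL8, a transcription factor of flower development, had a summit 895 bp away at chromosome 1 position 364270, with a fold of 4.87, 83 ChIP fragments and control at the background of 7.21. GATL10, a glycosyltransferase of the galacturonosyltransferase-like family, had a summit inside the gene at chromosome 3 position 10590158, with a fold of 4.6, 86 ChIP fragments and a control level of 8. WRKY33, a transcription factor of defence against necrotrophic fungi, had a fold of 4.47 at chromosome 2 position 16108658, with 76 ChIP fragments and control at background. The summits at SPL8, GATL10 and WRKY33 rest on fewer than 100 fragments over a control near its floor.

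TCH3, a calmodulin-like protein induced by touch, combined a high fold with many fragments. Its peak on chromosome 2, from 17138159 to 17139460, had a fold of 4.51 with 382 ChIP fragments and a control level of 39, and its summit lay inside TCH3 and the overlapping gene AT2G41105. ACA1, a calcium pump, had a fold of 4.21 with 177 fragments against a control level of 19, and TCH4, a touch-induced cell wall enzyme, had a fold of 4.12 with 103 fragments against 11. Among the 25 highest folds with a coding gene inside or within 1 kb, these 3 genes were joined by ERF12, MYB4 and WRKY47, which are transcription factors, and by LYK4, a receptor kinase that takes part in chitin perception. They also held TPR2, a corepressor of the TOPLESS family, and SIB1, a regulator of chloroplast sigma factors and of WRKY33. The folds of the 25 went down to 3.87, at SIB1.

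Over the whole list the fold ran between 1.22 and 4.96 with a median of 2.61 (quartiles 2.14 and 3.1). ChIP fragments over the summit ran between 49 and 8309 with a median of 107, against control levels between 7.21 and 3105 with a median of 18. The −log10 q, the authors' adjusted significance of a peak over its control, had a median of 5.82. The lowest was 3.01 at FC1 on chromosome 5 and the highest 139.7 on chromosome 4. Over the 505 peaks the −log10 q had a Spearman correlation of 0.16 with fold and of 0.56 with ChIP fragments. Fold and ChIP fragments therefore order the peaks differently. Over the 505 peaks the ChIP fragments had a Spearman correlation of 0.96 with the control level, whereas the fold had one of −0.83, and these values share the same libraries and, in part, the same numbers. At a control level equal to the background a peak was listed with a fold of 2.93 or more, so only sites with more control signal could enter with a lower one.

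**Figure D1:**
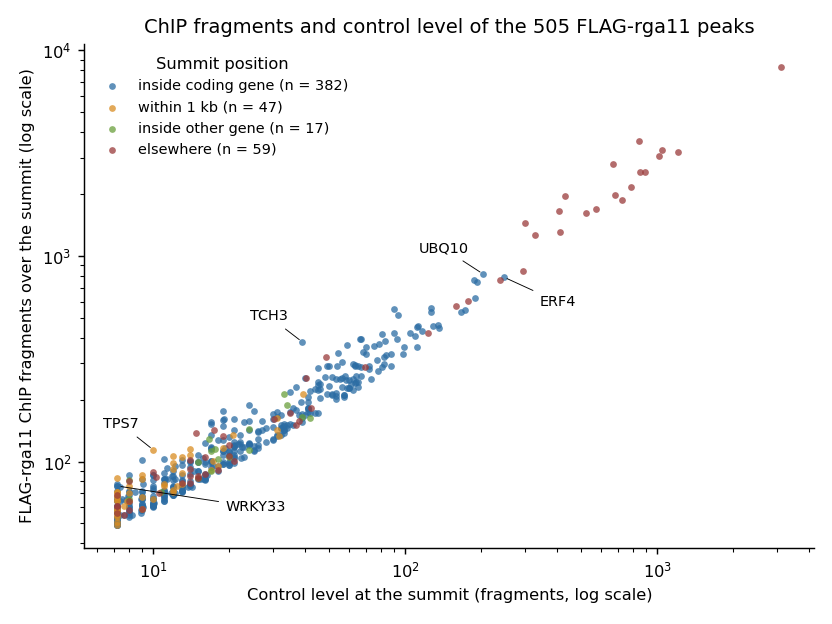
ChIP fragments of the FLAG-rga11 library over each of the 505 summits (vertical, log scale) against the control level there (horizontal, log scale), coloured by where the summit lies; 1 point is 1 peak. ChIP fragments climb with the control level from 49 to 8309, TCH3 stands above its neighbours with 382 fragments at a control level of 39, and the points at the far right lie in no gene.

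Control level also went with what a peak looked like. The 49 peaks at background had a median fold of 3.5, a median width of 180 bp and 63.3% of their summits inside coding genes. In the 117 peaks with a control between 5 and 20 times the background the median fold was 1.99, the median width 376 bp, and 91.5% of summits lay inside coding genes. In the 29 peaks over 20 times the background the median fold was 1.5 and only 24.1% lay inside coding genes. Of these 29, 18 belonged to 1 stretch of chromosome 4 described below, with 0 summits inside coding genes. The 7 inside coding genes all lay outside that stretch. In all, 146 peaks (28.9%) lay where the control stood over 5 times its background. The part of this control signal in the peaks was not tested.

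A summit inside a coding gene was the usual place. Of the 505 summits, 382 (75.6%, 95% interval 71.7 to 79.3) lay inside a coding gene, against 54.1% of the genome. Outside but within 1 kb of a coding gene lay 47 summits (9.31%, 6.92 to 12.2), against 20.4% of the genome. The remaining 17 lay inside genes of other kinds and 59 lay farther away, which is 3.37% and 11.7% of summits against 8.63% and 16.8% of the genome. Intervals are exact binomial ones and cover counting error only.

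Summits beside genes had higher folds than those inside them. The 47 outside within 1 kb had a median fold of 3.38, a median width of 167 bp and a median control 1.38 times the background, against 2.57, 255.5 bp and 2.73 times for the 382 inside. Their median distance from the gene was 358 bp, and 20 of the 47 lay within 300 bp. TPS7 and SPL8 are of this kind, as are IAA19, an auxin-response repressor with a summit 132 bp outside (fold 2.93, 49 ChIP fragments, control 7.21), and LAX1, an auxin influx carrier with one 250 bp outside (2.41, 162 fragments, control 31). The gene table gives no strand, so upstream and downstream could not be told apart.

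Inside genes the summits kept away from the ends. Of 390 pairs of a summit and the coding gene around it, 7.95% fell in the outermost 10% of the gene's length at either end, where 20% would fall if positions were even. The next steps of 10% inwards held 20.8%, 23.6%, 24.9% and 22.8%. The 336 genes with a summit inside were of ordinary length, with a median of 2046.5 bp against 2078 bp for all 27444 coding genes. By length, the share with a summit inside was highest between 1000 and 2000 bp, at 1.52%, and lowest over 5000 bp, at 0.549%. Per Mb of gene, marked genes were most frequent up to 1000 bp, at 11.3, and least over 5000 bp, at 0.804.

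**Figure D2:**
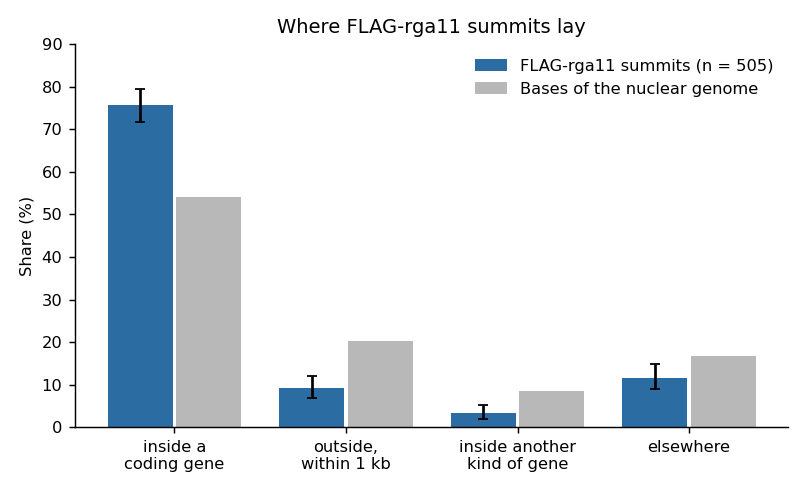
Share of FLAG-rga11 summits (blue, n = 505) and of the bases of the nuclear genome (grey) in each class of position, in percent; bars of summits carry exact 95% intervals. Summits exceed the genome only inside coding genes (75.6% against 54.1%).

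Most peaks were narrow. Width ran between 142 and 1829 bp with a median of 238 bp (quartiles 180 and 360), and the list covered 157.17 kb in all. Of the peaks, 177 (35.0%) were at most 200 bp wide, 153 were between 200 and 300 bp and 122 between 300 and 500 bp. Another 43 were between 500 and 1000 bp, and 95.3% of those had their summit inside a coding gene. All of the 10 peaks wider than 1000 bp did. Over peaks, width had a Spearman correlation of 0.52 with ChIP fragments, 0.49 with control level and −0.28 with fold (n = 505).

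The 5 widest intervals lay at ACA1, SZF1, CZF1, ACS6 and TCH3. ACA1 had the widest, 1829 bp with a fold of 2.1, 145 ChIP fragments and a control level of 32. SZF1 and CZF1, paired zinc-finger proteins of salt and immune responses, came next, with 1659 bp and a fold of 2.51 at SZF1 and 1648 bp and a fold of 1.98 at CZF1. ACS6, an enzyme of ethylene synthesis that mitogen-activated protein (MAP) kinases phosphorylate, had 1467 bp and a fold of 2.31, and TCH3 had 1302 bp. The other genes under intervals wider than 1000 bp, named after their values were seen, were EXO70B1 of the exocyst, RDUF1, a ubiquitin ligase, the transcription factor RAV2, and the purine permease genes PUP18 and PUP14. Their folds ran between 1.52 at RDUF1 and 2.86 at RAV2.

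**Figure D3:**
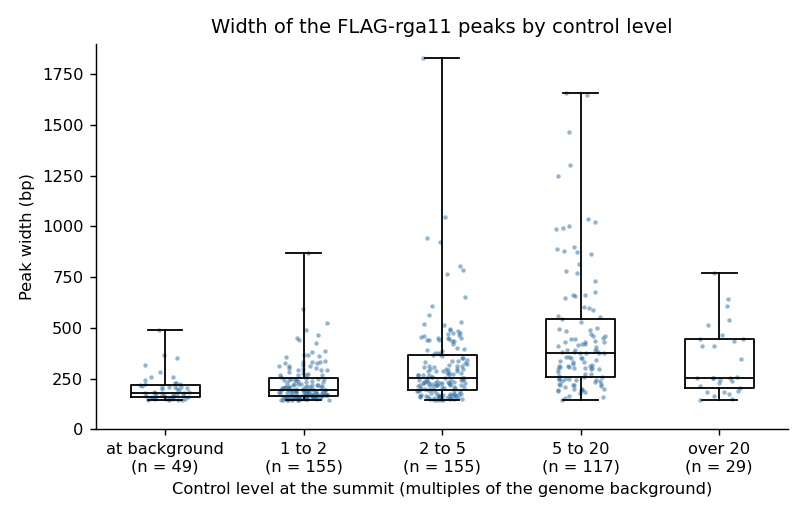
Width of the 505 FLAG-rga11 peaks in bp by class of control level at the summit, as multiples of the genome background; boxes give the median and quartiles, whiskers the lowest and highest, and points the peaks. The median width is 180 bp at background, 376 bp between 5 and 20 times, and 254 bp over 20 times the background.

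By chromosome, peak numbers followed chromosome size within a factor of 1.42. Chromosomes 1 to 5 held 131, 86, 92, 97 and 99 peaks, which is 4.31, 4.37, 3.92, 5.22 and 3.67 peaks per Mb. Without peaks whose control was over 5 times the background, chromosome 1 had the most per Mb. Per 1000 coding genes they held 18.3, 19.9, 16.8, 23.2 and 15.6. Of the 1193 windows of 100 kb, 868 (72.8%) held no summit. The median number of coding genes per window was 26 weighted by summit and 26 over all windows, but peaks per Mb differed by class. Windows with 1 to 10 coding genes held 2.44 peaks per Mb and those with over 30 held 5.46. The classes between held 3.22 and 4.49. The 20 windows with 0 coding genes did not follow that order, with 8 peaks or 4 per Mb.

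Summits often had a close neighbour. The median gap between neighbouring summits was 125.5 kb, yet 51 of the 500 gaps (10.2%) were at most 1 kb and 113 (22.6%) at most 10 kb. The smallest, 297 bp, separated both summits of XLG2, an extra-large G protein of immune signalling. Runs of 3 or more summits, each within 10 kb of the next, numbered 20 and held 78 summits (15.4%). Of these runs 12 spanned less than 3.5 kb and 4 held no coding gene within 1 kb of a summit.

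The densest stretch lay in gene-poor sequence of chromosome 4. A run of 11 summits between 3966450 and 3986213 was followed by a run of 7 between 3999736 and 4011278. Together these 18 peaks had folds of 1.22 to 2.27 (median 1.47), 760 to 3627 ChIP fragments and control levels of 238 to 1043. Their median control was 85.9 times the background, no coding gene lay along the 44.6 kb, and 4 pseudogenes did. The part of the high control in these calls was not tested.

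The peaks with the most ChIP fragments were of the same kind. The highest, 8309 fragments at chromosome 2 from 3607089 to 3607293, had a control level of 3105 and a fold of 1.26, and no coding gene lay within 1 kb. Of the next 4, 3 belonged to the chromosome 4 stretch, with folds of 2.0, 1.47 and 1.42, and 1 lay on chromosome 5 from 11706976 to 11707385, with 3200 fragments against a control level of 1206 and a fold of 1.25. The first of those 3, with 3627 fragments against a control level of 850, also had the highest −log10 q of the list.

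Another run without coding genes, 6 summits on chromosome 2 between 17339 and 28762, was unlike them. Its folds ran between 1.96 and 4.14, with 83 to 165 ChIP fragments and control levels of 14.8 to 39. The next largest runs each lay at 1 coding gene: RGA itself, CPK32 and BXL1, with 4 summits each.

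RGA, named RGA1 in the gene table, carried 3 summits inside the gene on chromosome 2. They lay at 255641 with a fold of 3.03 (127 ChIP fragments, control 19), at 256739 with 1.78 (172 fragments, control 45) and at 257174 with 2.45 (75 fragments, control 13.8). The fourth summit of the run, at 259015, had the highest fold of the run, 4.34, and lay inside the lncRNA gene AT2G04015. Fragments of the tagged RGA gene map to the same place, and could not be told apart from those of the RGA locus.

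Several genes carried more than 1 summit. Of 27444 coding genes, 336 (1.22%) had a summit inside, and 45 (0.164%) had 2 or more. BXL1, a cell wall xylosidase, and CPK32, a calcium-dependent protein kinase, had 4 each. The 4 folds in BXL1 ran between 2.04 and 4.47 over 3102 bp, and those in CPK32 between 2.35 and 3.0 over 1933 bp. WRKY33, BT5, RGA, SOBIR1 and AT1G27100 had 3 each.

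These genes held strong and weak summits side by side. WRKY33 had folds of 4.47, 2.68 and 2.69, at 76, 112 and 124 ChIP fragments against control levels of 7.21, 19 and 21. BT5, a BTB and TAZ domain protein, had folds of 2.46 to 3.55 with 127 to 149 fragments. SOBIR1, a receptor kinase that partners receptor-like proteins in immunity, had folds of 1.77 to 2.56 with 122 to 243 fragments.

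The other 38 genes had 2 summits inside, among them MPK3, SYP122, TET8, CYP707A3 and DIN10. MPK3, a MAP kinase of immunity, had folds of 3.19 and 3.46, at 82 and 123 fragments. SYP122, a syntaxin of secretion at the plasma membrane, had folds of 2.23 and 3.77, and TET8, a tetraspanin of extracellular vesicles, had 2.94 and 4.05. CYP707A3, which breaks down abscisic acid, had 2.39 and 3.57, and DIN10, a gene induced by darkness, had 2.96 and 3.67. In each of these genes both summits passed the authors' threshold as separate peaks.

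**Figure D4:**
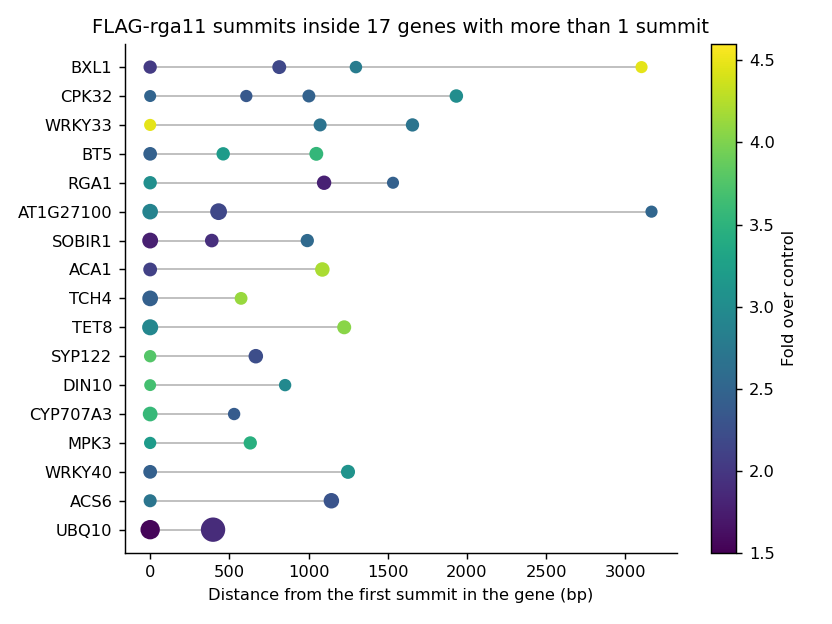
Summits inside 17 of the 45 coding genes with more than 1, placed by distance from the first summit in the gene (bp); colour gives the fold and point size grows with the ChIP fragments. All 7 genes with 3 or more summits are drawn, and 10 others were chosen after their values were seen. Folds within a gene differ, as in BXL1 (2.04 to 4.47).

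In all, 491 of 27444 coding genes (1.79%) had a summit inside or within 1 kb, and are called marked here. Of the 505 summits 301 marked 1 gene, 114 marked 2, 14 marked 3 and 76 marked none. Each of 22 gene lists was set against that 1.79%. Together the lists named 633 genes found in the table, of which 46 (7.27%) were marked. The lists were chosen with earlier results of these data known, so these shares describe the peaks and give no support of their own.

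Touch and calcium genes, the fast responders to bending and to cytosolic calcium, had 6 of 20 members marked (30%), all with a summit inside. With peaks at most 5 times the control background alone, 4 were marked. Of 29 entries in the touch list 20 were found in the gene table. Besides TCH3, TCH4 and CPK32 they were TCH2, CML38 and CPK28. TCH2, a calmodulin-like protein, had a fold of 1.90 with 252 ChIP fragments against a control level of 62, and CML38, another, had 2.69 with 101 against 17. CPK28, a calcium-dependent kinase that restrains immune signalling, had 2.90 with 368 against 59 inside the gene and 2.38 at a second summit 848 bp outside.

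Among the transcription factor lists the zinc fingers and stress ERFs had the highest shares, and part of these marks lay at high control. With peaks at most 5 times the background alone, the zinc fingers had 0 marked and the stress ERF and CBF factors 3. Of the ZAT and AZF zinc fingers, repressors and regulators in stress, 4 of 8 were marked (50%; 8 of 13 entries were found in the table): ZAT6, ZAT10 (STZ), ZAT12 (RHL41) and AZF2 (ZF2). Their folds were low, between 1.93 at ZAT6 and 2.02 at AZF2, and their control levels were 5.41 to 17.5 times the background. Stress ERF and CBF factors had 6 of 24 marked (25%), with folds of 1.51 at ERF4, 1.89 inside ERF8, 2.25 at ERF104, 2.48 at CBF1, 2.50 at ERF105 (AT5G51190) and 3.45 at ERF5. ERF4, a repressor, had 789 ChIP fragments against a control level of 246, and ERF5, an activator, 95 against 12.24. The part of the control level in these lists was not tested.

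WRKY factors, which act in defence and stress, had 5 of 72 marked (6.94%). WRKY33 and WRKY40 had more than 1 summit, with folds of 2.44 and 3.1 in WRKY40. WRKY70 had a fold of 3.11, WRKY22 2.35, and WRKY47 4.19 at 628 bp from the gene. NAC factors had 2 of 81 marked (2.47%), and only 81 of 114 entries were found in the table. NAC062 had 3 summits (folds 2.1 to 2.92) and NAC085 had 1 at 115 bp outside (3.84, 65 fragments, control 7.21). The count leaves out TIP (AT5G24590), a NAC factor with 2 summits inside (folds 2.27 and 3.33). SPL factors had 1 of 14 (SPL8), and PIF and HLH growth regulators 1 of 21, PAR1, a repressor in shade responses (fold 2.57, 69 fragments, control 12).

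The MAP kinase cascade, which relays stress and immune signals, had 3 of 30 members marked (10.0%), 1 at each tier. MEKK1 at its head had a fold of 2.65 with 70 ChIP fragments against a control level of 11.81. MKK9, in the middle, had 1.99 with 395 against 93, which is 12.9 times the background. With peaks at most 5 times the background alone, 2 members were marked and MKK9 was not. MPK3, at the end, had the pair of summits given above.

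Of the hormone lists, gibberellin metabolism and signalling had 1 of 36 marked (2.78%, against 1.79% of all coding genes), which was RGA itself. Auxin genes had 4 of 45 (8.89%): the efflux carrier PIN7 (fold 3.01), the synthesis enzyme TAA1 (3.04), LAX1 and IAA19. PIN7 had 81 ChIP fragments against a control level of 12, and TAA1 51 with control at the background of 7.21. Abscisic acid had 2 of 29 (6.90%), the phosphatase HAI1 (2.97, 61 fragments, control 9) and CYP707A3. With a −log10 q of at least 5, auxin genes had 2 marked and abscisic acid 1.

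Ethylene had 1 of 21 (4.76%), ACS6, cytokinin 1 of 26 (3.85%), the degrading enzyme CKX5 (3.73, 78 fragments, control 9.11), and jasmonate 1 of 23 (4.35%), the lipoxygenase LOX4 (2.33). The brassinosteroid list had 0 of 17 marked. With 1 marked gene or none, these shares rest on very little. The hormone lists are also not complete. PYL13 (abscisic acid), LOG8 (cytokinin) and OPCL1 (jasmonate), which they do not hold, had summits inside, with folds of 3.33, 2.71 and 1.69. ARF2 (auxin), also not held, had a summit 941 bp away with a fold of 2.76.

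Of the cell wall lists, GATL glycosyltransferases had 2 of 10 marked (20.0%), GATL10 and GATL9 (LGT8, fold 2.14), and expansins and XTHs, which loosen and remodel walls, 2 of 57 (3.51%). XTH4 had a fold of 2.58 with 124 fragments against 22, and TCH4, which is XTH22, is the other. Trehalose-6-phosphate synthases had 1 of 11 marked, TPS7. These counts are small, and TCH4 counts in the touch list too.

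Photosystem and light-harvesting genes had 4 of 37 marked (10.8%): LHB1B1 (fold 1.94), LHCB2.2 (2.0), PSAD-2 (2.05) and PSBX (2.3). The PSBX summit lay 745 bp from that gene and inside VPS2.1. Their median fold was 2.02 and their control levels were 2.22 to 8.32 times the background. With peaks at most 5 times the background alone, 2 were marked. The clock list had 0 of 17 marked, histones 0 of 19, and seed storage and pollen genes 0 of 16. Against 1.79% of all coding genes, 0 marked in lists this small says little. The seed and pollen list is also not complete: BCP1 and M17, which it does not hold, had summits inside, with folds of 3.84 and 2.11.

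**Figure D5:**
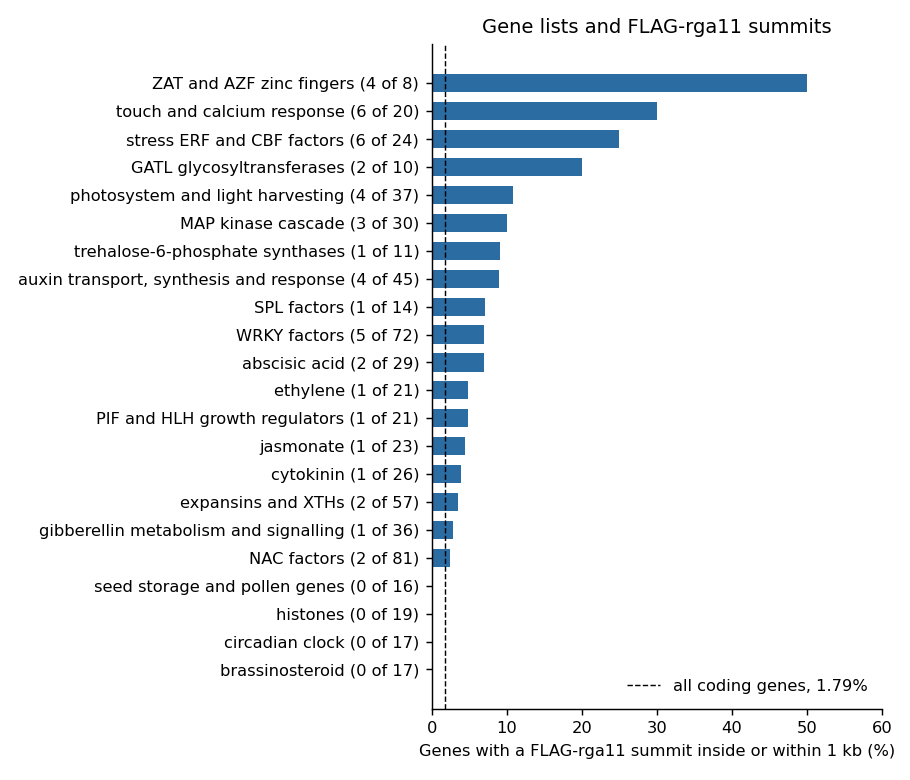
Percentage of the members of each gene list that have a FLAG-rga11 summit inside or within 1 kb (horizontal), with the counts beside the list names; the vertical line is the share of all coding genes, 1.79%. The ZAT and AZF zinc fingers (50%), touch and calcium genes (30%) and stress ERF and CBF factors (25%) have the highest shares, and 4 lists have none. Without peaks over 5 times the background in the control, the zinc fingers have 0.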

How the data were processed

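The authors deposited, per line, a peak list and its summits. MACS2 2.2.7.1, Bowtie2 2.4.5, deepTools 3.1.3, Trimmomatic 0.39 and the TAIR10 build are listed in the submitters' processing notes. Per the deposited values, a peak carries a fold (ChIP coverage in ratio to the control, with a pseudocount of 1), a −log10 p, a −log10 q and a score equal to 10 times the −log10 q. Peak numbers run to 778 while 505 peaks are listed; the sources used here do not give the step that left out 273. Nor do they give how reads with several matches were treated, which bears on repeats and gene copies.

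ChIP fragments and control levels were solved from fold and −log10 p (Python 3.11.15, scipy 1.17.1). ChIP fragments came out within 0.01 of a whole number at 505 of 505 peaks. At 10 peaks a second solution existed, at most 3.92% away. Mean ChIP coverage was 15.3 fragments per base. The solver was tested on simulated data.

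Gene names and neighbours came from RefSeq genes on TAIR10.1, whose nuclear chromosomes were taken to share coordinates with TAIR10. The table gives no strand or sequence, so planned motif searches were not run. Of 702 list entries 638 were found. Members and lists were chosen with earlier results of these data known. Named genes are those at the 25 highest folds, marked list members, genes with 2 or more summits, and genes at the 5 widest peaks, the 5 with most fragments and the 5 largest runs, with exceptions said. Alternatives changed the −log10 q threshold, control limit, flank, gap, window and gene rule.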

Additional observations from a re-analysis of the deposited data

How the results depend on the processing

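Of 31 alternative values for the 6 main results, 23 stayed close to their first value and 8 did not. Close means within 1.5 times, or for a share within its 95% interval. For the median width it means within the standard deviation of all widths. By that loose rule 353 bp, at a −log10 q of at least 10, passed against 238 bp. The share of summits inside coding genes could not change with flanks of 500 bp and 2 kb, by construction, and these values count among the 23. Among the 23, marked coding genes numbered 724 with a flank of 2 kb, and marked list members 33 with a −log10 q of at least 5. With a −log10 q of at least 5, marked coding genes numbered 286 instead of 491 and runs of summits 10 instead of 20. With at least 10, they numbered 93 and 2, marked list members 15 instead of 46, and 65.4% of summits lay inside coding genes instead of 75.6%. Keeping peaks with control up to 5 times the background left 11 runs, and the densest 100 kb window held 6 summits instead of 12. ZAT and AZF factors then had 0 marked instead of 4, stress ERF and CBF factors 3 instead of 6, and photosystem genes 2 instead of 4. Fewer peaks enter under each of these settings (303, 104 and 359 of 505). Chromosome 4 over the lowest in peaks per Mb was 3.1 at a −log10 q of at least 10, against 1.42; with control up to 5 times the background chromosome 1 led instead, with a ratio of 1.3. With a flank of 500 bp TPS7 and SPL8 were no longer marked, by construction. Of the other values, for single lists, shares, the chromosome ratio and the median fold, 34 moved and 131 did not. The median fold was judged by its standard deviation, as the width was.

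No paired analysis was possible because each group has 1 library. For the same reason no replicate could be left out. No listed peak had fewer than 49 ChIP fragments. Whether sites with fewer were called and then left out is not known here.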

Other observations

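Genes of other groups, put together after the peaks were seen and so given as values only, lay under the peaks as well. Of the immune receptors and signalling genes, RBOHD, the oxidase of the immune oxidative burst, had a fold of 1.83 with 328 ChIP fragments against a control level of 84. CMPG1, a ubiquitin ligase, had 3.81 with 160 against 19. LYK5, a chitin receptor, had 2.26 and LYK4 4.19, and NPR3, a salicylic acid receptor, had 3.16 with control at background. Of the neighbouring receptor genes AT5G41740 and AT5G41750, the first had folds of 2.21 and 3.55 and the other 2.70; how reads shared by such copies were counted is not known here.

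Membrane traffic genes included SYP121 (2.86), the exocyst genes EXO70B1 (2.18), EXO70D1 (2.93) and EXO70H7 (2.47), and VPS2.1 (3.18). EXO70D1 rests on 49 ChIP fragments, the fewest in the list, with control at background. By symbol, 3 of 18 genes named NUDT with a number (nudix hydrolases) and 5 of 13 named ERD (early responsive to dehydration) were marked. Only symbols with at least 10 genes and at least 3 marked ones were looked at. That filter sets a floor under these shares, so they cannot be compared with the 1.79% of all coding genes. The lowest share kept was 2.62%, from 6 of 229 CYP genes. AGP15, an arabinogalactan protein of the cell wall, had a fold of 1.62 with 253 ChIP fragments against a control level of 73. UBQ10, a polyubiquitin gene of repeated units, had a fold of 1.88 with 817 ChIP fragments against a control level of 203.63.

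Of genes of other kinds, some of which overlap coding genes, 15 of 3480 lncRNA genes (0.431%), 11 of 3917 pseudogenes (0.281%), 4 of 926 transcribed pseudogenes (0.432%), 3 of 221 ncRNA genes (1.36%), 1 of 508 misc_RNA genes and 1 of 326 miRNA genes held a summit, against 1.22% of coding genes. Away from any gene the highest fold was 4.29, on chromosome 1 at 4524134 with 80 ChIP fragments against a control level of 8. Of the 506 deposited summits 1, on chromosome 4 at 3955191, has no values and no peak.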
